A study of Danio rerio with 6 samples.

Results

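Connexins are the membrane proteins that assemble into gap junctions, and their transcripts were followed here in the regenerating caudal fin of zebrafish (Danio rerio) after an inhibitor of Hedgehog signalling. The members were chosen by name, with the treatment values of these same libraries already known: cx43, cx43.4, cx30.3, cx40.8, cx41.8, cx39.4 and cx28.8. Of these 7 names, 6 have a row in the deposited count table of 31901 rows. All 6 stand on 1 row each and passed the filter on low counts, among 18541 rows tested. The name cx41.8 has no row of its own and was dropped. RefSeq (assembly GRCz12tu, used for names and gene order only) lists it as a synonym of gja5b, whose row is described with the other connexins. In that assembly's table, 5 of the 6 members were matched to a symbol, and cx40.8 was not.

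Treated fish (BMS) received BMS-833923, a small molecule that inhibits Smoothened, the membrane protein that relays the Hedgehog signal. The dose was 40 mg/kg in an injection buffer of 50% PEG-400, 5% propylene glycol and 0.5% Tween-80, given into the body cavity. Control fish (vehicle) received the same buffer alone. Both groups carried the shha:GFP reporter, in which cells expressing shha, the gene of the Hedgehog ligand, are labelled green, and both had regenerated for 4 days after amputation. Fins were taken 5 hours after injection, keeping the tissue from the GFP domains to the tip. Each group has 3 libraries, numbered 2, 3 and 4, and each library pools 4 regenerates, so variation between single fish is not seen. The labels do not give the age or sex of the fish. They call all 3 BMS libraries Smoothened-inhibited, but the compound number in the treatment label is not the same for replicates 2, 3 and 4. The series' design text names 1 compound, and the libraries were taken as 1 treatment.

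A gap junction channel joins the cytoplasm of neighbouring cells: each cell contributes a ring of connexin subunits, and ions and small metabolites pass through the docked rings. Zebrafish connexins were first named by the predicted mass of the protein, and newer symbols sort them into classes (gja for alpha, gjb for beta, gjc for gamma). In zebrafish fins, cx43 is known from short fin mutants, which make short bony ray segments and have fewer dividing cells in the regenerate. Cx43 acts there in part through the secreted signal Sema3d and the matrix link protein Hapln1a. The pigment pattern of body and fins needs cx41.8 (leopard mutants) and cx39.4 (luchs mutants), which act in pigment cells.

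Total counts per library ran from 16978747 to 22659275. Values below are CPM, counts scaled to a library size of 1e6, after correction by the trimmed mean of M-values (TMM), and log2 fold changes are BMS over vehicle from edgeR's quasi-likelihood fit. CPM is not corrected for transcript length, so levels are compared between libraries and not between genes. BMS replicate 2 stood apart in its TMM factor, at 0.779, against 1.04 and 1.09 in the other BMS libraries and 0.954 to 1.12 in the vehicle libraries. Same-number libraries of the 2 groups deviated from their group means together, so values are also given within the pairs 2, 3 and 4. As a check of the treatment, the Hedgehog target hhip was at 1.97, 3.99 and 4.16 CPM in BMS replicates 2, 3 and 4 and at 15.1, 13.1 and 9.4 CPM in vehicle replicates 2, 3 and 4. Its log2 fold change was -1.88 ± 0.36. The targets gli1 and ptch1 differed less, at -0.90 ± 0.31 and -0.82 ± 0.35. The groups were apart for hhip and gli1, with BMS lower as in 1.76% of all tested rows, and overlapped for ptch1. All 3 targets were lower in BMS in 3 of 3 pairs, as were 17.5% of all tested rows. None of them passed an adjusted p of 0.05 in that fit. A second method, DESeq2, was also run with the replicate number as a block. It called hhip and gli1 (adjusted p 0.000112 and 0.0245) and not ptch1 (0.0542), where 0.482% of its rows passed.

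The connexin with the best known role in fin growth, cx43 (gja1b), differed little between the groups. It was at 97.6, 92.8 and 81.2 CPM in BMS replicates 2, 3 and 4, and at 104, 119 and 92.6 CPM in vehicle replicates 2, 3 and 4. The lowest vehicle library, replicate 4, lay within the BMS values, so the groups overlapped. The means were 90.5 ± 8.42 CPM in BMS and 105 ± 13.5 CPM in vehicle (SD, n = 3 each). The log2 fold change was -0.22 ± 0.26 (SE), with a 95% interval of -0.80 to 0.36. In the fit with the replicate number as a block it was -0.22, with an interval of -0.56 to 0.13. Within pairs 2, 3 and 4 the log2 difference was -0.09, -0.36 and -0.19, so cx43 was lower in BMS in 3 of 3 pairs, as were 17.5% of all tested rows.

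The cx43-like connexin cx40.8 is known in zebrafish as a close relative of cx43. It was at 3.94, 8.89 and 7.07 CPM in BMS replicates 2, 3 and 4, and at 6.2, 12.1 and 8.25 CPM in vehicle replicates 2, 3 and 4. In both groups replicate 2 was lowest and replicate 3 highest, and the groups overlapped. The log2 fold change was -0.41 ± 0.38, or -0.43 ± 0.20 with the block (interval -0.88 to 0.02). The log2 difference within pairs 2, 3 and 4 was -0.59, -0.42 and -0.21. Both cx43 and cx40.8 thus had the same sign in every pair, and neither passed the test.

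**Figure D1:**
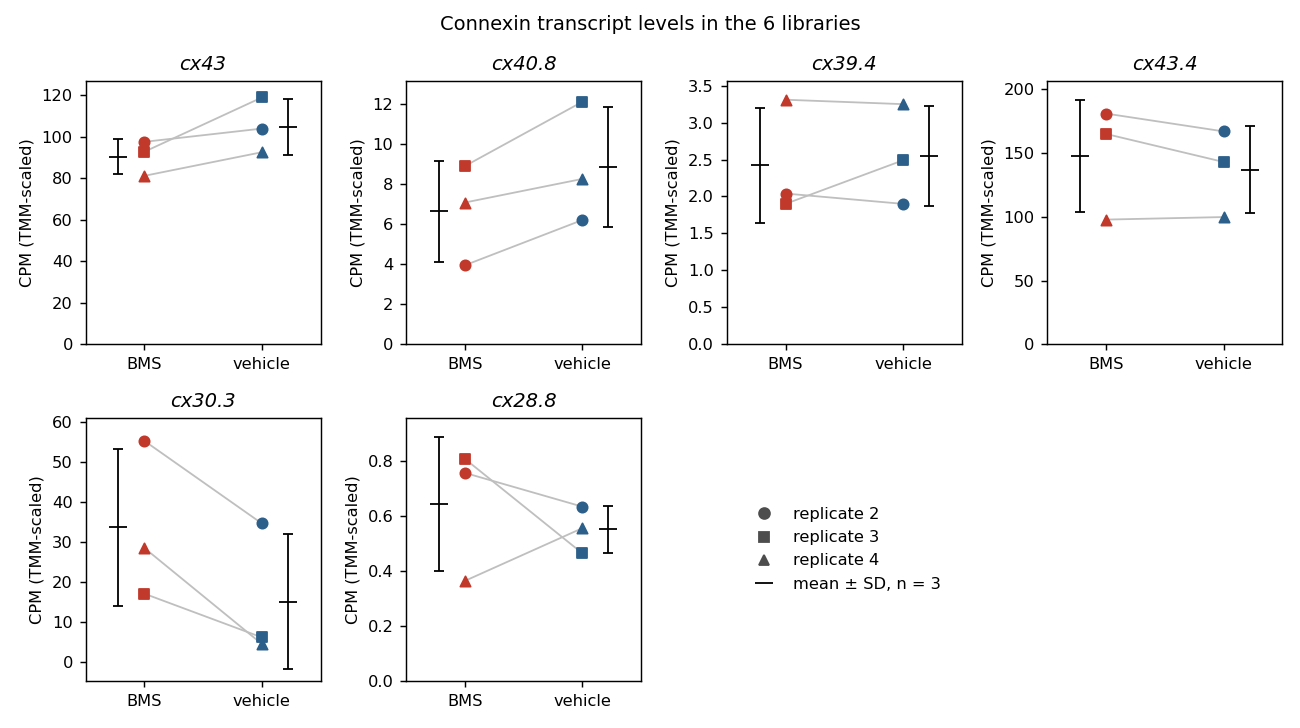
Levels of the 6 connexins in CPM (TMM-scaled, y axis from 0 or just below it) in each BMS library (red, left) and vehicle library (blue, right), with lines joining libraries of the same replicate number and bars giving mean ± SD (n = 3). The groups overlap in all 6 panels, and cx30.3 is higher in BMS in every pair but has 1 vehicle library, replicate 2 at 34.6 CPM, among the BMS values.

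The gamma connexin cx43.4 (gjc4b), which zebrafish embryos need to form the left-right organizer, did not separate the groups. It was at 181, 165 and 97.8 CPM in BMS replicates 2, 3 and 4, and at 167, 143 and 99.8 CPM in vehicle replicates 2, 3 and 4. Replicate 4 was the low library of both groups. The spread within a group, 1.85 times between the highest and the lowest BMS library and 1.68 times in vehicle, was larger than any difference within a pair (0.11, 0.20 and -0.03 on the log2 scale). The log2 fold change was 0.11 ± 0.33, with an interval of -0.63 to 0.85, or -0.25 to 0.44 with the block.

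The members of the beta class described here are cx30.3 (gjb8) and cx28.8 (gjb7). In mammals, several beta connexins join the cells of the epidermis. Of the 6 members, cx30.3 had the highest log2 fold change.

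The level of cx30.3 was 55.2, 17.1 and 28.5 CPM in BMS replicates 2, 3 and 4, and 34.6, 6.2 and 4.56 CPM in vehicle replicates 2, 3 and 4. Replicate 2 was the high library of both groups, and vehicle replicate 2 lay above BMS replicates 3 and 4. The means were 33.6 ± 19.5 CPM in BMS and 15.1 ± 16.9 CPM in vehicle (SD, n = 3 each). Its log2 fold change was 1.15 ± 0.72, with an interval of -0.45 to 2.76. Within pairs 2, 3 and 4 the log2 difference was 0.67, 1.39 and 2.52, higher in BMS in 3 of 3 pairs, which was true of 14.1% of all tested rows. With the replicate block the estimate was 1.56 ± 0.33 (interval 0.81 to 2.31). Without vehicle replicate 2 the unblocked estimate was 2.63, without BMS replicate 2 it was 0.61, and without vehicle replicate 4 it was 0.72, so the number 2 libraries moved it most. These values were known when the member was chosen, and they are given as a description.

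No other member varied as widely as cx30.3. Its highest library was 12.1 times its lowest, where this ratio lay between 1.47 (cx43) and 3.07 (cx40.8) in the other 5 members. Among the 3 vehicle libraries alone, which received no compound, the highest was 7.58 times the lowest. Of 12471 rows with a mean of at least 5 CPM over the 6 libraries, 30 (0.241%) spread more widely than that in vehicle.

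The 5 rows whose profiles over the 6 libraries were nearest to that of cx30.3 were cyldb, nr1d2a, elovl1a, dhrs13a.2 and hsd11b2. Likeness was measured as the root mean square difference between log2(CPM + 0.5) values, each gene centred on its own mean. The 12469 candidates were other rows with a mean of at least 5 CPM over the 6 libraries. The distance to cx30.3 was 0.425 log2 units for cyldb, a relative of the deubiquitinase gene CYLD, and 0.501 for hsd11b2, an enzyme that inactivates cortisol. The nuclear receptor gene nr1d2a, a repressor in the circadian clock, was at 104, 55.5 and 37.9 CPM in BMS replicates 2, 3 and 4, and at 90.9, 22.2 and 12.2 CPM in vehicle replicates 2, 3 and 4. Like cx30.3 it was highest in the number 2 libraries of both groups and lowest in vehicle replicate 4. The distances of the fatty acid elongase gene elovl1a and of dhrs13a.2 were 0.472 and 0.487. Unlike nr1d2a, cx30.3 was higher in BMS replicate 4 than in BMS replicate 3. None of the connexins described here that reached this level was among the 5: cx43.4 stood at place 2846, cx43 at place 7530 and cx40.8 at place 11584. Connexins below it, such as cx39.4 and cx28.8, were not candidates. The connexin that is not reported here was left out of the candidates. The 5 rows nearest to cx43 were knl1, gnl1, elf2a, wu:fj64h06 and chpf2, at distances of 0.052 to 0.068 log2 units.

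**Figure D2:**
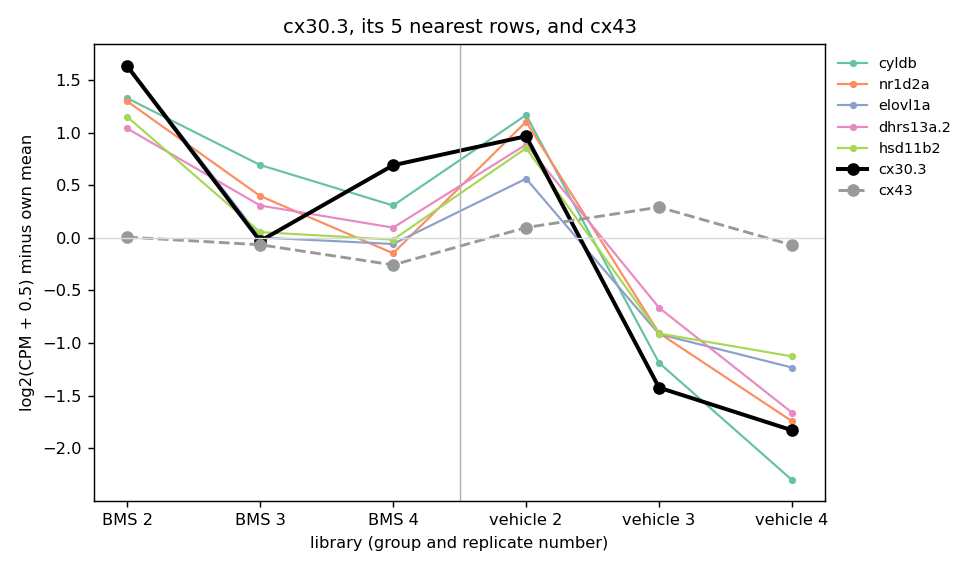
Profiles of cx30.3 (black), its 5 nearest rows (colours) and cx43 (grey, dashed) over the 6 libraries, as log2(CPM + 0.5) minus each gene's own mean. The black and coloured lines are high in BMS 2 and vehicle 2 and low in vehicle 3 and vehicle 4, while the line of cx43 stays close to 0.

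Markers of the outer epidermis were measured beside the beta connexins. All 14 markers of superficial and intermediate epidermis have a row, led by the keratin genes krt5 and krt4 and by icn, and 13 were tested. Their mean level was 8.16, 7.54 and 7.86 log2(CPM + 0.5) in BMS replicates 2, 3 and 4, and 7.52, 7.40 and 7.75 in vehicle replicates 2, 3 and 4. Their summed level was 41637, 26221 and 24201 CPM in BMS replicates 2, 3 and 4, and 30256, 26208 and 25189 CPM in vehicle replicates 2, 3 and 4. Of this sum, krt5 alone held 25161 CPM in BMS replicate 2. After TMM scaling, the sum over all tested rows was also highest in BMS replicate 2. It was 1284120, 963183 and 914734 CPM in BMS replicates 2, 3 and 4. In vehicle replicates 2, 3 and 4 it was 1047991, 941677 and 895636 CPM. The unblocked log2 fold change was positive in 13 of 13 tested markers, with a median of 0.31. Over all tested rows it was positive in 9553 of 18541. With the block it was positive in 12 of the 13 markers. None passed the test. At an unadjusted p under 0.05 by edgeR there were 0 of the 13 markers and 198 of all rows. With the block these counts were 2 and 1307. Other marker lists also had their highest mean level in BMS replicate 2. It was 7.57 there for basal epidermis, 6.93 for fin mesenchyme and 4.67 for immune cells. Vessel and muscle lists were highest there too, while osteoblast, pigment cell, nerve and red blood cell lists were not. The only tested muscle marker, tnnt3b, was at 22.3 CPM there and at 39.7 CPM in vehicle replicate 3. By summed level, the basal epidermis, vessel, osteoblast and nerve lists were highest in BMS replicate 2. The fin mesenchyme, immune, muscle, pigment cell and red blood cell lists were not. Basal epidermis markers were positive in 7 of 10 and immune markers in 6 of 7. In bulk tissue, a change in the number of cells of a type and a change in RNA per cell cannot be told apart. The part of the epidermal markers in the values of cx30.3 was not tested.

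Another beta connexin, cx34.4 (gjb10), had 207 to 817 reads per library. Its level was 15.7, 29.7 and 33 CPM in BMS replicates 2, 3 and 4, and 18.4, 22.2 and 22.9 CPM in vehicle replicates 2, 3 and 4. It was higher in BMS in pairs 3 and 4 (0.41 and 0.52 on the log2 scale) and lower in pair 2 (-0.23), and its groups overlapped. The log2 fold change was 0.30 ± 0.32. In RefSeq's gene order cx43 lies beside the alpha connexin cx32.2 on chromosome 20, and cx30.3 beside the alpha connexin gja3 on chromosome 9. The row of cx32.2 was at 17.7, 20.9 and 17.1 CPM in BMS replicates 2, 3 and 4 and at 15.6, 17.7 and 17.5 CPM in vehicle replicates 2, 3 and 4, where cx43 had the lower values in BMS. The row of gja3 held 1 read in all 6 libraries together, so this connexin neighbour of cx30.3 was not measurable at this depth. The genes on the other side, cryl1 for cx30.3 and hsf2 for cx43, were not examined.

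The other beta member, cx28.8, was near the limit of detection. It had 10, 17 and 9 reads in BMS replicates 2, 3 and 4 and 13, 11 and 14 reads in vehicle replicates 2, 3 and 4, which is 0.364 to 0.808 CPM in BMS and 0.464 to 0.634 CPM in vehicle. A count of 0 would allow up to 0.119 to 0.227 CPM on the same TMM scale, depending on the library (3 reads, counting error only). The log2 fold change was 0.20, with an interval of -0.86 to 1.25, and its sign turned to -0.04 without BMS replicate 3. At these counts no difference was detectable.

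Of the 2 connexins known from pigment pattern mutants, cx39.4 (gja4) was at 2.04, 1.9 and 3.31 CPM in BMS replicates 2, 3 and 4, and at 1.9, 2.49 and 3.25 CPM in vehicle replicates 2, 3 and 4. Replicate 4 was highest in both groups, and the log2 fold change was -0.07 ± 0.37 (interval -0.90 to 0.76). The gene that RefSeq equates with cx41.8, gja5b, had 2, 5 and 13 reads in BMS replicates 2, 3 and 4, and 11, 15 and 14 reads in vehicle replicates 2, 3 and 4. Its levels of 0.151 to 0.525 CPM in BMS lay below those of 0.537 to 0.633 CPM in vehicle, as they did in 1.76% of all tested rows. The gap between the closest libraries was smaller than 1 read in CPM, and the log2 fold change was -0.82, with an interval of -2.0 to 0.36. Pigment cell markers were present at low levels in both groups: all 13 have a row, their summed level was 66 to 84 CPM in BMS and 55.9 to 90.8 CPM in vehicle, and 10 were tested with a median log2 fold change of -0.15. The largest part of the sum was csf1ra, with a mean of 40.3 CPM over the 6 libraries. The next were tyrp1b at 11.4 and pmela at 9.64 CPM, and mitfa was at 0.868 CPM. Bulk tissue does not show which cells the csf1ra reads came from. The immune marker mpeg1.1 was also present, at a mean of 74.6 CPM. Whether the number of pigment cells bears on cx39.4 or gja5b was not tested.

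Beyond the 6 members, 26 other connexin rows are described, and 7 of these passed the filter. Of the 26, 5 had a mean of at least 1 CPM: cx34.4 and cx32.2, described above, and cx44.2, cx28.6 and cx30.9. The gamma connexin cx44.2 was at 15.6, 16.9 and 28 CPM in BMS replicates 2, 3 and 4 and at 22.5, 17.8 and 30.9 CPM in vehicle replicates 2, 3 and 4, lower in BMS in 3 of 3 pairs, with a log2 fold change of -0.24 ± 0.33. The beta connexins cx28.6 and cx30.9 averaged 1.31 ± 0.576 and 0.909 ± 0.101 CPM in BMS, against 1.72 ± 1.17 and 1.13 ± 0.609 CPM in vehicle, with log2 fold changes of -0.37 ± 0.54 and -0.32 ± 0.46. Of the 7 other connexins tested, 2 had positive and 5 negative values, with a median of -0.24. Of the remaining 21 rows, 15 had some reads but under 1 CPM on average, and 6 had none in any library, among them cx39.9, cx52.6, cx52.7 and gjd2b.

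**Figure D3:**
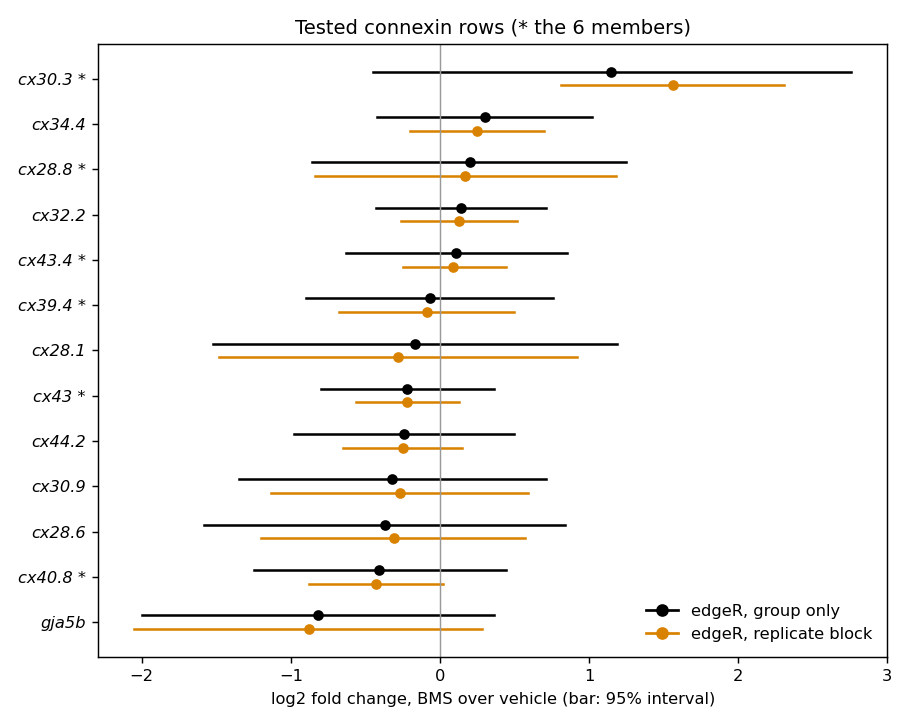
Log2 fold changes (BMS over vehicle, x axis) of 13 tested connexin rows with their 95% intervals, from edgeR with group only (black) and with the replicate block (orange); stars mark the 6 members. The unblocked intervals of all 13 rows include 0, and with the block that of cx30.3 does not.

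Genes that work with connexins were taken from a list of 23, of which 22 were tested. The list holds pannexins, which form related membrane channels, zonula occludens scaffolds, which bind connexin tails, genes tied to Cx43 in the zebrafish fin, ray joint genes and genes of pigment pattern or fin length. Over the 22, 9 log2 fold changes were positive and 13 negative, with a median of -0.07, against a median of 0.01 over all tested rows.

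Among the 7 genes tied to Cx43, the groups overlapped in each, while 5 (hapln1a, plxna3, nrp2a, esco2 and smc3) were lower in BMS in 3 of 3 pairs, as were 17.5% of all tested rows. The semaphorin gene sema3d was at 39.6, 25.1 and 17.5 CPM in BMS replicates 2, 3 and 4 and at 35.3, 28.3 and 18 CPM in vehicle replicates 2, 3 and 4, a log2 fold change of 0.01 ± 0.37. The link protein gene hapln1a was at 96.3, 170 and 140 CPM in BMS replicates 2, 3 and 4, and at 173, 189 and 156 CPM in vehicle replicates 2, 3 and 4. Its log2 fold change was -0.35 ± 0.29, and BMS replicate 2 was the low library. The Sema3d receptor genes plxna3 and nrp2a had values of -0.40 ± 0.40 and -0.27 ± 0.41, or -0.46 ± 0.17 and -0.33 ± 0.16 with the block. The cohesin genes esco2 and smc3, which act upstream of cx43 in zebrafish fins, had -0.21 ± 0.30 and -0.10 ± 0.29, and the beta-catenin gene ctnnb1 had -0.14 ± 0.41. With the block, the estimates of all 7 were negative (median -0.23), where 9683 of the 18541 rows were negative. The summed levels of the 7 overlapped between the groups and were lower in BMS within every pair, at 1517, 1303 and 751 CPM in BMS replicates 2, 3 and 4 and 1600, 1478 and 935 CPM in vehicle replicates 2, 3 and 4. Most of this sum came from 1 gene, ctnnb1. It was at 1100, 861 and 426 CPM in BMS replicates 2, 3 and 4, and at 1078, 980 and 565 CPM in vehicle replicates 2, 3 and 4.

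The other partners gave mixed signs. Of the 5 scaffold genes, 3 were positive and 2 negative: tjp2a was at 0.07 ± 0.32, tjp3 at 0.28 ± 0.39, tjp2b at 0.47 ± 0.33, tjp1b at -0.02 ± 0.32 and tjp1a at -0.20 ± 0.34 (log2 fold change ± SE). In 3 of 3 pairs tjp2b was higher in BMS and tjp1a lower. The pannexin genes panx3, panx1a and panx1b were at 0.09 ± 0.32, 0.12 ± 0.26 and -0.36 ± 0.41. The highest value on the list, 1.85 ± 0.84, was that of panx2, a low gene with 52 reads in BMS replicate 3, 5 and 15 in BMS replicates 2 and 4, and 9, 12 and 1 in vehicle replicates 2, 3 and 4. Among the joint genes evx1, which zebrafish need to form ray joints, was at -0.13 ± 0.31 and dlx5a at -0.05 ± 0.37. The gene pthlha was at -0.25 ± 0.29 and lower in BMS in 3 of 3 pairs. The metalloproteinase gene mmp9 was at 0.26 ± 0.31 and higher in 3 of 3. Over all tested rows 17.5% were lower and 14.1% higher in every pair. The potassium channel gene kcnk5b, whose activity sets fin length in zebrafish, was at 23.2, 12.8 and 13.9 CPM in BMS replicates 2, 3 and 4 and at 16.3, 8.73 and 8.49 CPM in vehicle replicates 2, 3 and 4. It was higher in BMS in 3 of 3 pairs by 0.50, 0.53 and 0.68 on the log2 scale, although the groups overlapped because replicate 2 was high in both. The pigment cell potassium channel gene kcnj13 was at -0.26 ± 0.54.

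**Figure D4:**
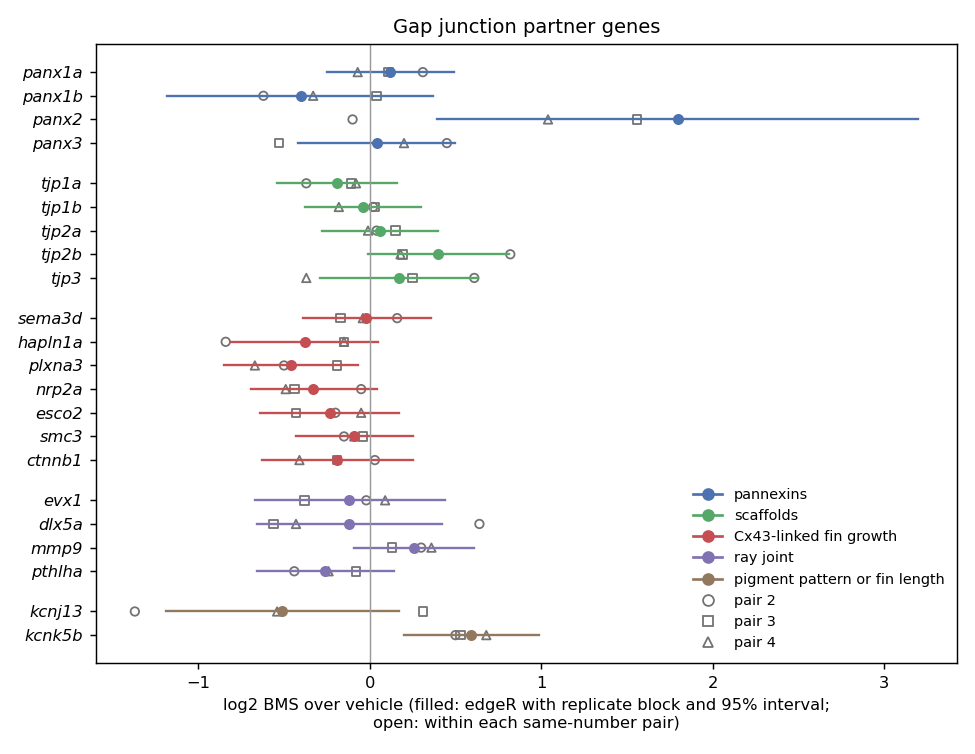
Log2 ratios (BMS over vehicle, x axis) of 22 tested partner genes by role: filled points and bars give the edgeR estimate with the replicate block and its 95% interval, open symbols the difference within pairs 2, 3 and 4. The filled points of the 7 genes tied to Cx43 lie left of 0, and kcnk5b has its 3 pairs between 0.50 and 0.68.

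In the main test, edgeR's quasi-likelihood fit with group as the only term, 0 of the 6 members, 0 of the 7 other tested connexins and 0 of the 22 partners passed an adjusted p of 0.05, where 0.0% of all rows passed. At an unadjusted p under 0.05, the counts were 0, 0 and 0, and 198 over all rows. With the replicate block the same test again called no row, and the counts at an unadjusted p under 0.05 were 1 (cx30.3), 0 and 3 (panx2, plxna3 and kcnk5b), and 1307 over all rows. DESeq2 with the block called cx30.3 and no other connexin or partner described here, where 0.482% of its rows passed. The likelihood ratio test with the block likewise called cx30.3 alone of these genes, with 0.593% of rows passing. Nothing is read from this call, since cx30.3 was chosen with it known. In DESeq2 with the block, cx30.3 also passed without the number 2 libraries (log2 fold change 2.06 ± 0.33, with 0.545% of rows passing). It did not pass without those of number 3 (1.63 ± 0.90, 0.418% passing) or number 4 (1.07 ± 0.37, 0.0271% passing). Without the block, DESeq2 and the likelihood ratio test called none of these genes and 0.00539% of all rows, and limma-voom called no row with or without the block.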

How the data were processed

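The authors deposited raw read counts for each gene row as whole numbers, and a second, shorter table of normalized signal on a CPM scale. Per the submitters' processing notes, the build was GRCz11 and the software included HTSeq 0.6.1, TopHat2 2.1.1, edgeR 4.3.2 and Bowtie2 2.33, each without a stated role. Annotation and strand setting: not given in the sources used here, so reads of overlapping genes on opposite strands cannot be told apart. The counts were used for all tests. In the deposited normalized signal table (11549 rows), the values of the 11399 rows that could be matched by a unique name were within 0.1% of a count times 1 constant per library, and the table served as an alternative for the fold changes.

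Here edgeR 4.0.16 (R 4.3.3) was run on the counts with TMM scaling, filterByExpr, a robust quasi-likelihood fit, group as the only term and two-sided tests, adjusted by Benjamini-Hochberg over all tested rows at 0.05. Standard errors are the log2 fold change divided by the root of F. Alternatives were DESeq2 1.42.0, limma-voom 3.58.1, edgeR's likelihood ratio test, further scalings and filters, the replicate number as a block, and leaving out each library. DESeq2 was run on rows that passed filterByExpr. Of rows that share a name (541 names), the one with the highest mean carries the symbol.

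The replicate numbers were taken as pairs because deviations from the group mean correlated across rows at 0.63, 0.62 and 0.68 between same-number libraries (limit 0.1). This pairing is read from the data and is not stated in the labels. No library repeated another: within a group, chi-square over degrees of freedom was 35.5 to 143.7. Because the labels name pools, p-values reflect only variation from pool to pool. Genes named are all members, connexins of at least 1 CPM, the 3 highest partners of each role and the 5 nearest rows to cx43 and cx30.3. The other partners given, gja5b, gja3 and the rows without reads were named after their values were seen. A further connexin is not reported here. The members and lists were chosen with earlier results of these data known.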

Additional observations from a re-analysis of the deposited data

How the results depend on the processing

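Of the 6 members, cx43 and cx40.8 were negative and cx30.3 positive in all 23 alternatives run for each. The ranges were -0.34 to -0.12 for cx43, -0.67 to -0.12 for cx40.8 and 0.61 to 2.63 for cx30.3. The sign of cx43.4 was negative in 4 of 23, that of cx39.4 positive in 4 of 22 and that of cx28.8 negative in 2 of 21. Total-count scaling shifted the median of all rows to -0.096, or -0.138 in DESeq2 with the block. For all rows, against 0 called in the main fit, DESeq2 and the likelihood ratio test each called 1. With the replicate block, DESeq2 called 72 rows (51 higher, 21 lower), the likelihood ratio test 110 and DESeq2 with total-count size factors 47 (21 higher, 26 lower). Without both libraries of number 2, 3 or 4, DESeq2 with the block called 97, 49 and 5 rows. Of the members, both of these blocked fits called 1, cx30.3, as did DESeq2 with the block and total-count size factors. Without both libraries of 1 number the count was 0 to 1. Leaving out 1 library was run only in the unblocked quasi-likelihood fit, which called 0 rows with all libraries. It gave 0 calls in all 3 gene lists and over all rows, which says nothing about the blocked calls. Among the members, the other connexins and the partners the block changed no other call. Of the 5 rows nearest to cx30.3, nr1d2a and elovl1a also passed in DESeq2 with the block and not without it. In that blocked fit 0.482% of rows passed. Nothing is read from these calls, since the rows were chosen for a profile like that of cx30.3. The other connexins and the partners had 0 calls in each alternative. The causes were not tested. Low genes such as cx28.8 and gja5b are limited by depth.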
